A study of Mus musculus with 12 samples.

Results

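Gene expression was compared between hearts of busulfan-treated mice that had received a control-type FMT and hearts of mice treated with busulfan alone. The comparison took every gene of the deposited table in 3 libraries of each kind, 6 of the 12 libraries of the series, and 13489 of the 17536 listed genes had enough reads to be tested. The control-FMT hearts carry the treatment label B+Con-FMT, which gives no busulfan dose. The busulfan hearts carry a dose of 20 mg/kg. The other 2 groups of 3 were AOS-FMT hearts, labelled B+AOS10mg/kg-FMT, and untreated control hearts. All mice were of ICR, an outbred stock, and 10 weeks old. FMT commonly stands for faecal microbiota transplantation, the transfer of gut microbes between animals, and busulfan is an alkylating drug that crosslinks DNA. The labels do not describe the donors, the course of the transfer or the sex of the mice, and AOS is written as they give it. The series set out to explore what the transfer does in hearts that busulfan has damaged.

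The repressor gene Bcl6 had the smallest p, and Cd74, H2-Aa and H2-Ab1 of MHC class II were among the higher genes with the smallest p. These are therefore the genes described first. Other genes that were called in an alternative test are described further on. MHC class II molecules are pairs of an alpha and a beta chain (H2-A and H2-E in the mouse) that display peptides to CD4+ T cells. The invariant chain Cd74 guards the groove during assembly, and H2-DM loads the peptide in the endosome. In the heart these genes are read mainly in resident macrophages, dendritic cells and B cells. The co-activator CIITA switches them on through a promoter unit in which an X box, bound by the RFX complex, lies upstream of a Y box, bound by NF-Y. BCL6 is a zinc-finger repressor of transcription that is known in germinal-centre B cells, in macrophages and in metabolic tissues.

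The promoter unit is shown for 4 class II genes, because CIITA is known to act on this group through it. Of these 4 genes, only H2-Aa separated the control-FMT from the busulfan libraries. The stretches below were read from RefSeq promoters of GRCm38.p6, are given 5′ to 3′ on the strand of the gene, and end shortly after the Y box. Capitals mark the Y-box core GATTGG and, where it is present, the X-box core AACNGATG.
H2-Aa (chr17:34287858-34287917, minus strand): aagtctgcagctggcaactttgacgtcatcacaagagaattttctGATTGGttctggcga
H2-Eb1 (chr17:34305762-34305821, plus strand): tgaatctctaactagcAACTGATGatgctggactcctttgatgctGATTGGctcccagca
H2-DMb1 (chr17:34153084-34153143, plus strand): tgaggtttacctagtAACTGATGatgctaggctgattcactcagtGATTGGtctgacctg
H2-DMb2 (chr17:34145113-34145172, plus strand): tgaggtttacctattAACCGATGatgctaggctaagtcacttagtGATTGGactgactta

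The Y-box core began 49 bases before the annotated start in H2-Aa, 60 in H2-Eb1, 62 in H2-DMb1 and 91 in H2-DMb2. From the first base of the X core to the first base of the Y core the distance was 29 bases in H2-Eb1 and 30 bases in both H2-DMb genes. RefSeq promoters, each running from 250 bases before to 50 bases after a start, were read for 8 of the 11 listed class II genes. Cd74, which lies on chromosome 18, was left out of this reading. Among these 8 genes the Y core was found in 8 and the X core in 4, when every entry of a gene was read. Searched on both strands, with overlaps allowed, the Y core occurred in 16.1% of all 32851 promoters and the X core in 2.32%. An X core followed on the same strand by a Y core that starts 20 to 35 bases further on occurred in 5 promoters, 0.0152% of all. Those 5 belong to H2-Eb1, H2-Eb2, H2-DMb1, H2-DMb2 and BC051142, all on chromosome 17, where the MHC lies. H2-Aa has a Y core but no exact X core in this window.

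Expression is given as CPM, the read count of a gene relative to the TMM-scaled total of its library, and differences as log2 fold changes of control-FMT over busulfan with their standard error. The 6 libraries held 11333650 to 12607706 estimated counts each. Control-FMT libraries had TMM factors of 1.007 to 1.023, and busulfan libraries 0.9474 to 0.968. Nothing in the labels ties the numbered replicates to separate animals, so p-values measure only how these samples scatter, and that scatter may in part be technical. Heart identity was clear from the ventricular markers Myh6, Myl2, Tnnt2 and Tnni3, whose summed level was 71480 to 75690 CPM in control-FMT hearts and 80650 to 102100 CPM in busulfan hearts. The atrial markers Sln, Myl4, Myl7 and Bmp10 summed to 188.8, 14.16 and 1255 CPM in control-FMT hearts and to 8.181, 218.7 and 881.7 CPM in busulfan hearts, so that the atrial share of the tissue varied within both groups. A library stood apart in each group. Control-FMT replicate 2 was high in macrophage genes, and busulfan replicate 2 was high in interferon-stimulated genes. Values without them are given beside the results that they moved most.

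Few or no genes were called between the 2 groups, depending on the fit. edgeR's quasi-likelihood test called 0 of 13489 genes at an adjusted p under 0.05, a share of 0.0%, and the lowest adjusted p was 0.999. This fit shares its estimate of the spread with the AOS-FMT and untreated groups, whose replicates differed more. Between replicates of a group, the chi-square of their counts per degree of freedom was 9.259 to 15.65 in the compared groups. It was 24.43 to 73.24 in AOS-FMT and 34.85 to 75.28 in untreated hearts. Few calls in this fit therefore do not show that the groups are alike. An unadjusted p under 0.05 was reached by 358 genes, 2.65% of those tested. Of these, 238 were higher in control-FMT hearts, 1.76% of all genes, and 120 were lower, 0.89% of all genes. DESeq2 called 2 of 13473 genes, 0.0148%, namely Bcl6 and the predicted gene Gm40525, both higher. A fit of the 6 compared libraries alone called 2 genes, 0.0154%, namely Bcl6 and Stbd1, both higher. The median absolute log2 fold change of all genes was 0.108, and 99% of genes lay under 1.26. With 3 libraries against 3, all control-FMT values were above all busulfan values in 730 genes, 5.41% of those tested, and below them in 887 genes, 6.58%.

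**Figure D1:**
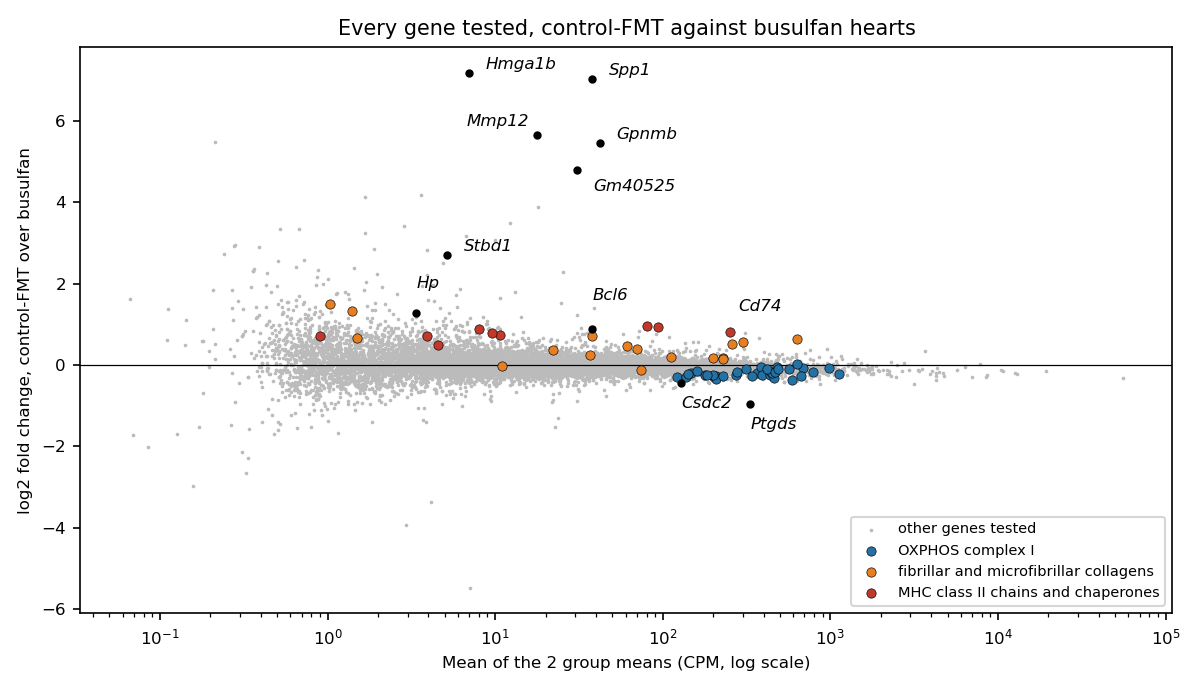
Each dot is a gene tested. The horizontal axis gives the mean of the 2 group means in CPM on a log scale and the vertical axis the log2 fold change of control-FMT over busulfan hearts. The 9 MHC class II genes (red) lie above the zero line, 35 of the 36 genes of OXPHOS complex I (blue) lie below it, and Spp1, at 7.02, is high in a single library. Black dots mark other genes named in the text.

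Bcl6 was the gene with the smallest p. It lies at chr16:23965050-23988866 in GRCm38.p6. Its level was 49.6, 47.5 and 50.04 CPM in control-FMT hearts, against 27.2, 24.2 and 28.8 CPM in busulfan hearts. The 3 control-FMT libraries lay close together and far above all busulfan libraries. Means were 49.1 ± 1.34 CPM and 26.7 ± 2.33 CPM (SD, n = 3 each), a log2 fold change of 0.88 ± 0.16. Bcl6 rose by this measure in the DESeq2 test (adjusted p = 0.00869) and in the edgeR fit of the 6 libraries alone (adjusted p = 0.0168), but not in the edgeR fit of all 12 libraries (adjusted p = 0.999, unadjusted p = 8.86e-05). Over all alternative settings its log2 fold change ran from 0.81 to 0.96 and its adjusted p from 0.00869 to 1. Untreated control hearts had 35.01, 30.7 and 36.4 CPM, above all busulfan and below all control-FMT libraries.

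Genes that work with BCL6 or that it is known to repress did not move as a group. In the list of its corepressors and known targets, 9 of 23 tested members lay above 0, with a median log2 fold change of -0.07, or 0.01 without scaling and 0.02 on the TPM scale, against -0.0004 for all genes. A single member had an unadjusted p under 0.05, where 0.89% of all genes were lower at that threshold. This was the class II histone deacetylase gene Hdac5, a partner of several repressors. Hdac5 had 162, 160 and 150 CPM in control-FMT hearts and 187, 177 and 181 CPM in busulfan hearts, a log2 fold change of -0.21 ± 0.09.

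All 9 tested MHC class II genes were higher on average in control-FMT hearts. Their median log2 fold change was 0.78, and it ranged from 0.49 to 0.96, while the median of all genes was -0.0004. Of the 9 genes, 4 were higher at an unadjusted p under 0.05, where 1.76% of all genes were. In 5 the libraries of the 2 groups did not overlap, against 5.41% of all genes that did not overlap in this direction. Cd74, H2-Aa, H2-Ab1 and H2-DMa were named for their small p and lack of overlap in this same comparison. These counts are therefore a description and not a separate test of the list. edgeR called none after adjustment (adjusted p = 0.999), and the lowest DESeq2 adjusted p was 0.0974, for Cd74 and H2-Aa. The members share regulators and cells and, except for Cd74, are neighbours on chromosome 17, so they are not independent readings.

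H2-Aa, the alpha chain of H2-A, had 110, 166 and 92.7 CPM in control-FMT hearts, against 65.3, 62.8 and 65.0 CPM in busulfan hearts. H2-Ab1, the beta chain, had 93.5, 148 and 76.5 CPM in control-FMT hearts and 59.6, 52.95 and 50.6 CPM in busulfan hearts. Both chains were higher in every control-FMT library than in any busulfan library, and both were highest in control-FMT replicate 2. The log2 fold change was 0.93 ± 0.22 for H2-Aa and 0.96 ± 0.24 for H2-Ab1. Cd74, the invariant chain, had 302, 427 and 234 CPM in control-FMT hearts, against 190, 170 and 184 CPM in busulfan hearts. Its groups did not overlap either, and its log2 fold change was 0.82 ± 0.19. H2-DMa, a chain of the peptide loader, had 8.54, 16.9 and 11.04 CPM in control-FMT hearts and 5.92, 7.47 and 7.78 CPM in busulfan hearts, again without overlap (log2 fold change 0.78 ± 0.23). H2-DMb1 and H2-DMb2 are near copies that can share reads, and their values are therefore uncertain. Their log2 fold changes were 0.49 ± 0.34 and 0.70 ± 0.39, and their libraries overlapped.

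Control-FMT replicate 2 was the highest library for each of the 4 leading class II genes, so each was also taken without it. The log2 fold change was then 0.65 for H2-Aa, 0.64 for H2-Ab1, 0.56 for Cd74 and 0.47 for H2-DMa. The median of the 9 genes was 0.58 without this library, all 9 remained above 0, and 4 had an unadjusted p under 0.05. In the fit without it, 175 of 13701 genes were higher at that threshold. Untreated hearts had H2-Aa at 134, 91.6 and 140 CPM and Cd74 at 271, 221 and 288 CPM, above the 3 busulfan libraries in both genes. In whole tissue, more cells of a type and more RNA per cell cannot be told apart.

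**Figure D2:**
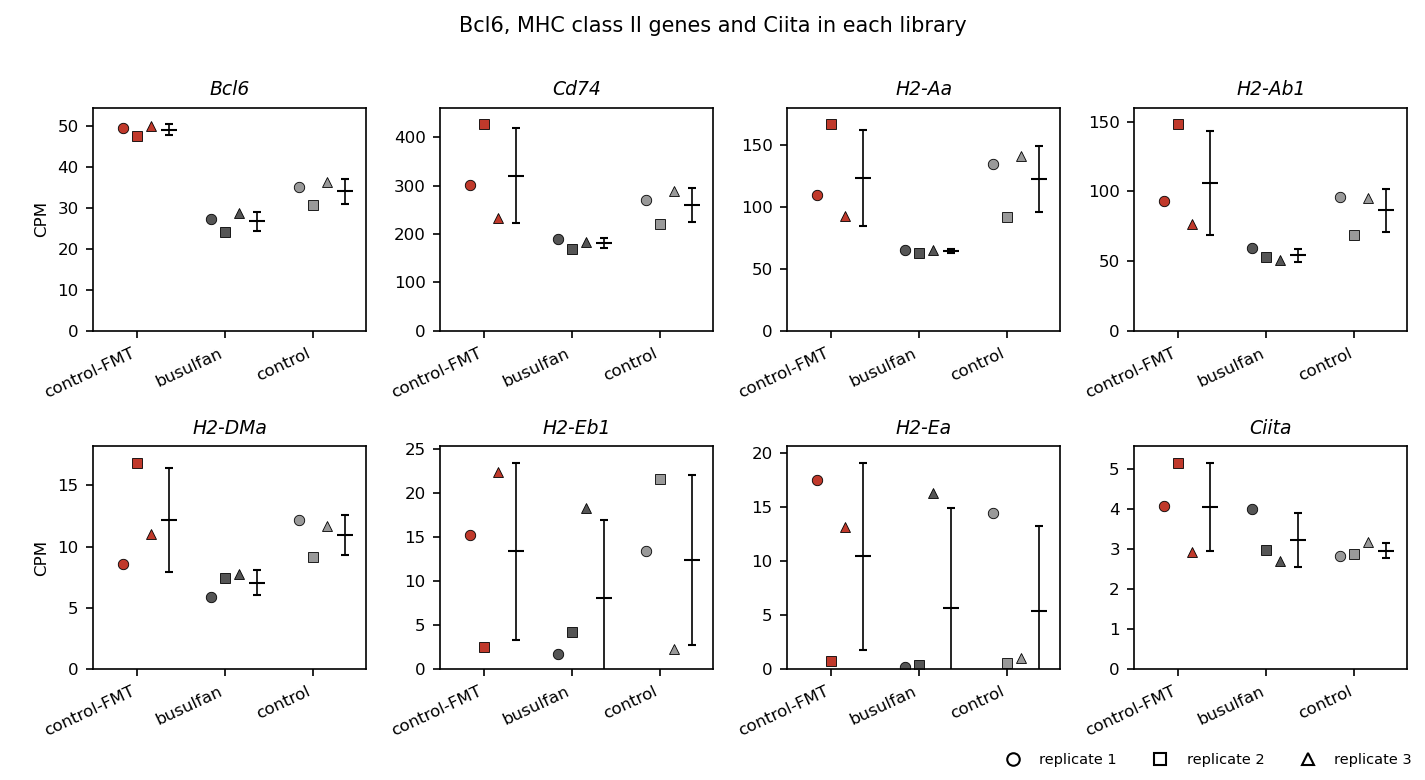
Each marker is a library, with its shape giving the replicate number, and the vertical axis gives CPM. The cross beside each group is the mean and SD of 3 libraries, with bars cut off at 0. Bcl6, Cd74, H2-Aa, H2-Ab1 and H2-DMa are higher in all control-FMT libraries than in any busulfan library, while H2-Eb1, H2-Ea and Ciita overlap.

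The H2-E chains behaved in another way, with high and low libraries in each group. H2-Ea, the alpha chain of H2-E, is named here for this spread, after its values were seen. It had 17.5, 0.736 and 13.1 CPM in control-FMT hearts, against 0.174, 0.339 and 16.3 CPM in busulfan hearts. AOS-FMT hearts had 0.755, 32.4 and 16.2 CPM, and untreated hearts 14.5, 0.532 and 1.03 CPM. Every library was thus either above 13 CPM or near 1 CPM or below, in all groups, and the fold change between groups (0.89 ± 1.77) turns on how many libraries of each kind a group holds. Mouse strains are known to differ in whether they make the H2-E alpha chain at all, and ICR mice are outbred. H2-Eb1, the partner chain, had 15.3, 2.54 and 22.4 CPM in control-FMT hearts and 1.65, 4.16 and 18.3 CPM in busulfan hearts, and among these 6 libraries it was low in the same 3 as H2-Ea. H2-Eb1 had 11.6, 39.8 and 40.5 CPM in AOS-FMT hearts and 13.4, 21.6 and 2.3 CPM in untreated hearts. There the pair parted, since AOS-FMT replicate 1 and untreated replicate 2 were low in H2-Ea and not in H2-Eb1.

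No gene that regulates class II reached an unadjusted p under 0.05. Ciita, the co-activator, had 4.08, 5.16 and 2.93 CPM in control-FMT hearts and 4.0, 2.97 and 2.71 CPM in busulfan hearts, with overlapping libraries and a log2 fold change of 0.33 ± 0.25. In TPM, Ciita averaged 0.863 ± 0.204 in control-FMT hearts and 0.55 ± 0.0954 in busulfan hearts (SD, n = 3 each). The RFX subunits Rfx5, Rfxap and Rfxank lay at -0.03, -0.04 and -0.13, and the NF-Y subunits Nfya, Nfyb and Nfyc at 0.03, 0.01 and -0.0035. Of the 13 members of this list, which also holds proteases of antigen processing, 0 had an unadjusted p under 0.05. Ctss, the cathepsin that trims the invariant chain, had 27.8, 81.3 and 24.2 CPM in control-FMT hearts and 20.8, 32.7 and 23.9 CPM in busulfan hearts. Ctsl, another lysosomal cathepsin, had 196, 326 and 218 CPM in control-FMT hearts and 182, 182 and 202 CPM in busulfan hearts. Both were highest in control-FMT replicate 2, and both overlapped between groups.

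MHC class I and interferon-stimulated genes lay on the other side of 0. Of 18 class I and immunoproteasome genes, 2 were above 0, and the median log2 fold change was -0.24. H2-Q6, a class I gene with close relatives that can share its reads, had 13.5, 15.2 and 17.0 CPM in control-FMT hearts, against 24.7, 44.0 and 17.4 CPM in busulfan hearts. It was the only class I gene without overlap, where 6.58% of all genes did not overlap in this direction, and its log2 fold change was -0.91 ± 0.34, or -0.47 without busulfan replicate 2. Of 41 interferon-stimulated genes 6 were above 0, with a median of -0.21. Of the 6 libraries, busulfan replicate 2 was the highest for both lists. Their summed levels in the 3 control-FMT libraries were 1540, 1670 and 1609 CPM for class I and 1078, 1033 and 1086 CPM for interferon-stimulated genes. In the busulfan libraries they were 1733, 2515 and 1531 CPM for class I and 1105, 1514 and 978.7 CPM for interferon-stimulated genes.

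Without busulfan replicate 2 the median was -0.02 for class I genes and 0.04 for interferon-stimulated genes, with 8 of 18 and 25 of 41 members above 0. The antiviral factor genes Irf7 and Oas2 show the same library: Irf7 had 26.4, 28.9 and 20.5 CPM in control-FMT hearts and 32.1, 55.6 and 19.8 CPM in busulfan hearts. An exception in this list was Ifi202b, a DNA sensor of the interferon-inducible p200 family. It had 3.06, 2.62 and 1.98 CPM in control-FMT hearts and 1.22, 1.10 and 1.10 CPM in busulfan hearts, a log2 fold change of 1.16 ± 0.28 without overlap.

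Macrophage genes were higher on average in control-FMT hearts, and much of that came from a single library. In the list of resident and recruited macrophage markers, 19 of 25 genes were above 0 with a median of 0.21. Of these 25, 6 were higher at an unadjusted p under 0.05, where 1.76% of all genes were, and 3 were higher without overlap, where 5.41% of all genes were. Without control-FMT replicate 2 the median was 0.10, with 22 above 0 and 1 higher at an unadjusted p under 0.05. In that fit 175 of 13701 genes were higher at that threshold. The defining markers Adgre1, Cd68, Cd163, Csf1r, Mrc1 and C1qa, none of them at 0, summed to 262.5, 330.3 and 226.6 CPM in control-FMT hearts and 201.6, 265.2 and 229.1 CPM in busulfan hearts. These sums overlapped. The part of macrophage number in the class II difference was not tested.

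Spp1, which encodes osteopontin, had 1.65, 222 and 1.29 CPM in control-FMT hearts and 0.174, 0.509 and 1.01 CPM in busulfan hearts. Gpnmb, a glycoprotein of lipid-laden macrophages, had 1.41, 242 and 3.19 CPM in control-FMT hearts and 0.783, 2.97 and 1.86 CPM in busulfan hearts. Mmp12, the macrophage elastase, had 1.18, 102 and 1.29 CPM in control-FMT hearts and 0.783, 0.849 and 0.423 CPM in busulfan hearts. In all 3 genes control-FMT replicate 2 stood far above every other library. Their log2 fold changes, 7.02, 5.45 and 5.66, were 1.36, 0.29 and 0.84 without it. Itgax, an integrin of dendritic cells and macrophages, had 0.549, 19.2 and 0.690 CPM in control-FMT hearts and 0.609, 0.339 and 0.169 CPM in busulfan hearts, and its log2 fold change of 4.16 was 0.72 without that library. Lgals3, Trem2 and Cd68, further genes of lipid-laden macrophages, were also highest there, at 115, 21.4 and 67.8 CPM. Over the 21 tested genes of lysosomes and lipid-laden macrophages the median log2 fold change was 0.39 with all libraries and 0.05 without control-FMT replicate 2, with 19 and 14 members above 0.

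Some immune genes were higher in control-FMT hearts also without that library. Ctsk, a collagen-degrading cathepsin, had 1.88, 3.60 and 4.49 CPM in control-FMT hearts, against 0.0870, 0.255 and 1.01 CPM in busulfan hearts, and its log2 fold change of 2.84 ± 0.86 was 2.78 without it. Nlrc3, a cytoplasmic NOD-like receptor known as a brake on inflammatory signalling, had 7.45, 6.71 and 13.4 CPM in control-FMT hearts and 3.92, 3.73 and 5.50 CPM in busulfan hearts (log2 fold change 1.06 ± 0.27). Neither gene overlapped between groups. Ccr2, the receptor that brings monocytes into tissue, had 7.13, 10.2 and 6.04 CPM in control-FMT hearts and 3.92, 4.58 and 4.40 CPM in busulfan hearts, and its log2 fold change of 0.85 ± 0.33 was 0.61 without control-FMT replicate 2. Clec7a, the beta-glucan receptor Dectin-1, had 4.23, 9.41 and 6.13 CPM in control-FMT hearts and 2.70, 3.73 and 2.96 CPM in busulfan hearts (log2 fold change 1.07 ± 0.31, and 0.72 without that library). Each control-FMT library was above each busulfan library in both genes.

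Sensors of microbial products, the list closest to a transfer of gut microbes, showed small differences. Of 26 Toll-like receptors and related genes 22 were above 0 with a median of 0.20, or 0.13 without control-FMT replicate 2 and 0.09 without busulfan replicate 1. Clec7a and Tlr13, 2 of the 26, had an unadjusted p under 0.05, where 1.76% of all genes were higher at that threshold. Tlr13, an endosomal receptor for bacterial ribosomal RNA, had 6.11, 11.1 and 5.44 CPM in control-FMT hearts and 2.61, 5.51 and 3.81 CPM in busulfan hearts, with a small overlap (log2 fold change 0.92 ± 0.33, and 0.54 without control-FMT replicate 2). Of 22 complement genes 19 were above 0 with a median of 0.23, or 0.08 without busulfan replicate 1. The receptor gene C5ar1 (0.80 ± 0.30) and the protease gene Cfi (2.15 ± 0.86) had unadjusted p under 0.05, and C5ar1 was 0.55 without control-FMT replicate 2. Cfi was scarce, with 8, 31 and 13 counts in control-FMT hearts and 3, 5 and 3 counts in busulfan hearts. It too was highest in control-FMT replicate 2. Cytokine and NF-kB feedback genes had a median of 0.11 over 22 members, and of 0.03 to 0.14 with 1 library left out, with 0 at an unadjusted p under 0.05. Their most abundant member, Tnfaip2, averaged 96.3 ± 18.5 CPM in control-FMT hearts and 96.2 ± 5.62 CPM in busulfan hearts (SD, n = 3 each).

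Of 24 chemokine genes and their receptors 16 were above 0, with a median of 0.16, or 0.09 without control-FMT replicate 2 and 0.31 without busulfan replicate 2. Cxcr4, a receptor on many leukocytes, had 13.8, 14.7 and 11.9 CPM in control-FMT hearts and 10.2, 11.6 and 8.63 CPM in busulfan hearts (log2 fold change 0.41 ± 0.16), without overlap. Ccl21a, a chemokine of lymphatic vessels with near-identical copies, had 94.3, 123 and 92.8 CPM in control-FMT hearts and 66.8, 56.7 and 81.9 CPM in busulfan hearts (log2 fold change 0.60 ± 0.27), also without overlap but uncertain because of its copies.

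Lymphocyte transcripts were scarce. All 6 tested B cell markers and all 7 tested T and NK cell markers were above 0, with medians of 0.78 and 0.65, but without control-FMT replicate 2 the medians were 0.30 and -0.03, with 4 of 8 T and NK markers above 0. On the TPM scale the medians were 0.19 and 0.28. With all libraries 0 of these 13 genes separated the groups, and 1, Jchain, had an unadjusted p under 0.05. Of all genes, 1.76% were higher at that threshold. The plasma cell gene Jchain had 0.784, 4.42 and 0.863 CPM in control-FMT hearts and 0.957, 0.339 and 0.677 CPM in busulfan hearts, and its log2 fold change of 1.61 was 0.32 without control-FMT replicate 2. Ccl5, the most abundant gene of the T and NK list, had 1.65, 4.42 and 1.29 CPM in control-FMT hearts and 1.13, 2.55 and 1.01 CPM in busulfan hearts. Among dendritic markers, Clec10a, a lectin of conventional dendritic cells and macrophages, had 4.39, 8.84 and 3.28 CPM in control-FMT hearts and 3.74, 2.63 and 2.54 CPM in busulfan hearts (log2 fold change 0.89 ± 0.38, and 0.37 without control-FMT replicate 2). Csf3r, the receptor for the granulocyte growth factor, lay at 0.53 ± 0.25.

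Fibroblast and collagen genes were higher on average in control-FMT hearts. Of 19 fibroblast markers 18 were above 0, with a median of 0.42, and 10 did not overlap, where 5.41% of all genes did not. Of 17 fibrillar and microfibrillar collagens 15 were above 0, with a median of 0.38, and 7 did not overlap. In other matrix genes 34 of 41 were above 0 with a median of 0.26, and 10 did not overlap. Higher at an unadjusted p under 0.05 were 2, 4 and 6 genes of these 3 lists, where 1.76% of all genes were. None was called after adjustment (edgeR adjusted p = 0.999). Without control-FMT replicate 2 the 3 medians were 0.33, 0.33 and 0.26, and 0, 1 and 2 genes were higher at an unadjusted p under 0.05. In that fit 175 of 13701 genes were higher at that threshold.

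Col1a1, the main chain of type I collagen, had 287, 420 and 371 CPM in control-FMT hearts, against 222, 256 and 250 CPM in busulfan hearts. Its groups did not overlap, and its log2 fold change was 0.56 ± 0.29. Col3a1, of type III collagen, had 612, 952 and 734 CPM in control-FMT hearts and 431, 510 and 529 CPM in busulfan hearts (log2 fold change 0.64 ± 0.29). Both fibrillar collagens were highest in control-FMT replicate 2 and were lowest in busulfan replicate 1. Col5a2, which sets fibril width, had 63.1, 76.7 and 73.1 CPM in control-FMT hearts and 46.3, 51.1 and 55.6 CPM in busulfan hearts (log2 fold change 0.48 ± 0.21). Col6a3, of the microfibrils around cells, had 70.9, 84.4 and 83.0 CPM in control-FMT hearts and 69.7, 54.5 and 58.8 CPM in busulfan hearts (log2 fold change 0.38 ± 0.14). Neither overlapped. The low-abundance Col8a2 averaged 1.54 ± 0.558 CPM in control-FMT hearts and 0.540 ± 0.171 CPM in busulfan hearts (SD, n = 3 each), a log2 fold change of 1.49 ± 0.44.

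Genes of activated fibroblasts were among them. Postn, which encodes the matricellular protein periostin, had 61.0, 134 and 121 CPM in control-FMT hearts and 35, 54 and 67.3 CPM in busulfan hearts, with an overlap of 1 library (log2 fold change 1.01 ± 0.42). Lox, the collagen crosslinking enzyme, had 6.27, 11.7 and 6.56 CPM in control-FMT hearts and 6.18, 3.31 and 4.23 CPM in busulfan hearts (log2 fold change 0.84 ± 0.33, and 0.49 without control-FMT replicate 2). Tnc, encoding tenascin-C, averaged 3.91 ± 0.738 CPM in control-FMT hearts and 1.91 ± 0.893 CPM in busulfan hearts (SD, n = 3 each). The collagen chaperone gene Sparc had 770, 835 and 952 CPM in control-FMT hearts and 677, 725 and 580 CPM in busulfan hearts, without overlap (log2 fold change 0.37 ± 0.16). Ltbp2, a microfibril protein, had 6.82, 12.1 and 8.11 CPM in control-FMT hearts and 4.0, 2.71 and 6.77 CPM in busulfan hearts (log2 fold change 1.00 ± 0.41).

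The resting fibroblast markers Pdgfra, Dcn, Lum and Tcf21, none at 0, summed to 1507, 1273 and 1706 CPM in control-FMT hearts and 1080, 1293 and 1474 CPM in busulfan hearts, and these sums overlapped. The part of fibroblast number in the collagen values was not tested. Dcn itself lay at 0.21 ± 0.23. Basement membrane genes did not share the pattern, with 13 of 21 above 0 and a median of 0.07, which ranged from -0.01 to 0.16 with 1 library left out. Lama5, a laminin chain of vessel walls, had 82.5, 82.6 and 86.9 CPM in control-FMT hearts and 97.2, 115 and 110 CPM in busulfan hearts (log2 fold change -0.36 ± 0.16), without overlap. Col4a3 had a log2 fold change of 0.50 ± 0.23 with overlapping libraries. Endothelial markers had a median of 0.02 over 19 genes and pericyte and smooth muscle markers 0.15 over 15, or -0.03 and -0.07 without control-FMT replicate 3. The most abundant of each, the fatty acid translocase gene Cd36 and the intermediate filament gene Des, lay at -0.01 ± 0.15 and -0.13 ± 0.14.

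**Figure D3:**
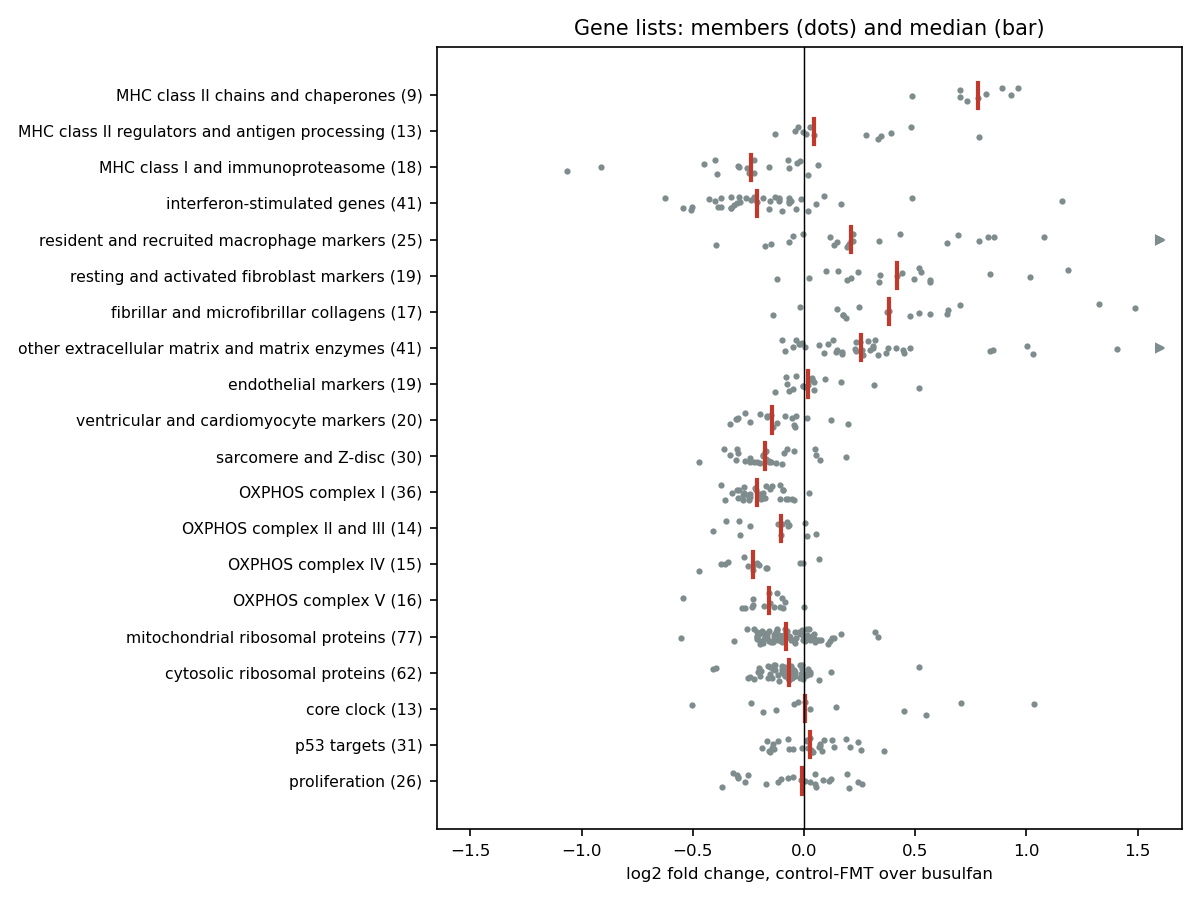
Each row is a gene list with its number of tested members, each dot a member's log2 fold change of control-FMT over busulfan hearts, and the red bar the median. Arrowheads mark members beyond the axis. MHC class II chains have a median of 0.78 and fibroblast markers of 0.42, OXPHOS complex I genes of -0.21, and core clock, p53 and proliferation lists lie near 0.

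Genes of the contractile apparatus and of oxidative phosphorylation were slightly but widely lower in control-FMT hearts. Members of such lists can move together, so they are not independent readings. Of 30 sarcomere and Z-disc genes 4 were above 0, with a median of -0.17, and 15 did not overlap, where 6.58% of all genes did not. Their summed level was 136100, 140700 and 137300 CPM in control-FMT hearts and 164000, 177800 and 152600 CPM in busulfan hearts. Untreated hearts had 167400, 128700 and 115100 CPM, a wider spread than within either compared group. Ventricular and cardiomyocyte markers had a median of -0.14, with 3 of 20 above 0 and 7 without overlap. Myh6, the main adult myosin heavy chain, had 46970, 51290 and 49150 CPM in control-FMT hearts, against 58640, 71850 and 55090 CPM in busulfan hearts. Myh7, the slow and fetal myosin heavy chain, had 2600, 2416 and 2869 CPM in control-FMT hearts and 3427, 4393 and 3112 CPM in busulfan hearts. In both genes every control-FMT library was below every busulfan library, and busulfan replicate 2 was the highest. The log2 fold changes were -0.33 ± 0.18 for Myh6 and -0.47 ± 0.21 for Myh7, or -0.21 and -0.32 without busulfan replicate 2.

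Of 36 nuclear genes of OXPHOS complex I, the entry point of the respiratory chain, 1 was above 0 and the median was -0.21. In 18 of them the groups did not overlap, where 6.58% of all genes did not in this direction. These genes too are not independent readings. Their summed level was 13920, 13530 and 13420 CPM in control-FMT hearts and 16550, 15120 and 14620 CPM in busulfan hearts. Untreated hearts had 19510, 11440 and 14560 CPM, again a wider spread than within either compared group. Complexes II and III had 3 of 14 genes above 0 and a median of -0.10, complex IV 1 of 15 and -0.23, and complex V, the ATP synthase, 1 of 16 and -0.16. In these 3 lists 4, 8 and 9 genes did not overlap. The differences of single genes were close to their standard errors: a single OXPHOS gene, Atp5k, had an unadjusted p under 0.05. Of all genes, 0.89% were lower at that threshold. Atp5k, a small subunit of the ATP synthase, had 110, 82.0 and 97.2 CPM in control-FMT hearts and 129, 167 and 125 CPM in busulfan hearts (log2 fold change -0.54 ± 0.20). Cox6a2, the heart and muscle form of a complex IV subunit, had 3969, 3360 and 3856 CPM in control-FMT hearts and 5086, 4584 and 4804 CPM in busulfan hearts (log2 fold change -0.37 ± 0.18). Ndufb8, the most abundant complex I gene of the list, had 1111, 1038 and 986 CPM in control-FMT hearts and 1243, 1222 and 1193 CPM in busulfan hearts (log2 fold change -0.22 ± 0.19). The 3 genes were lower in every control-FMT library, whereas Uqcrc1, a core subunit of complex III, overlapped at -0.07 ± 0.20.

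The size of these differences depended on the scaling. Without scaling beyond library size the median of all genes moved to 0.08, and the medians were -0.09 for sarcomere genes, -0.13 for complex I, -0.02 for complexes II and III, -0.15 for complex IV and -0.07 for complex V. On the log2(TPM + 1) scale, where the median of all genes was 0.08, they were -0.09, -0.08, -0.0009, -0.07 and -0.03. Complexes I, IV and V and the sarcomere genes thus stayed below both 0 and the median of all genes under both settings. Myh6 alone held 4.75% to 5.16% of counts in control-FMT libraries and 5.33% to 6.90% in busulfan libraries, and its part in the other values was not tested. Mitochondrial ribosomal proteins (median -0.08 over 77 genes), cytosolic ribosomal proteins (-0.07 over 62) and genes of fatty acid uptake and oxidation (-0.06 over 30) changed sign under both of these settings, to 0.0012, 0.01 and 0.02 without scaling and to 0.03, 0.05 and 0.03 on the TPM scale. The median of all genes moved up by 0.08 under these settings, so these 3 lists lay below it in each of them. Leaving out 1 library moved complexes II and III to between -0.19 (without busulfan replicate 2) and -0.02 (without busulfan replicate 1), and fatty acid genes to between -0.16 (without busulfan replicate 2) and -0.01. Mitochondrial ribosomal proteins ranged from -0.12 to 0.0038 and cytosolic ones from -0.14 to -0.01. Complexes I, IV and V stayed between -0.28 and -0.14 in each of these fits.

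Single genes of mitochondria and metabolism stood lower than their lists. Mrpl55, a mitochondrial ribosomal protein, had 52.4, 57.7 and 45.6 CPM in control-FMT hearts and 86.2, 86.8 and 55.6 CPM in busulfan hearts (log2 fold change -0.56 ± 0.20), with an overlap of 1 library. Slc25a26, the mitochondrial carrier of S-adenosylmethionine, had 20.8, 20.1 and 17.7 CPM in control-FMT hearts and 26.4, 23.2 and 26.5 CPM in busulfan hearts (log2 fold change -0.37 ± 0.10). Timm9, a chaperone of the inner membrane import path, had 13.4, 11.3 and 10.1 CPM in control-FMT hearts and 16.6, 15.3 and 16.3 CPM in busulfan hearts (log2 fold change -0.47 ± 0.14). The last 2 genes did not overlap. Pex6, an ATPase needed to import proteins into peroxisomes, had 35.8, 43.9 and 41.0 CPM in control-FMT hearts and 53.7, 49.0 and 50.5 CPM in busulfan hearts, likewise without overlap (log2 fold change -0.34 ± 0.10).

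In glycolysis 6 of 20 genes were above 0, with a median of -0.10, or -0.05 without control-FMT replicate 3. Pfkl, the liver form of phosphofructokinase, which sets the pace of glycolysis, had 157, 169 and 153 CPM in control-FMT hearts and 259, 197 and 193 CPM in busulfan hearts (log2 fold change -0.44 ± 0.19). Pfkp, the platelet form, had 107, 126 and 93.3 CPM in control-FMT hearts and 143, 122 and 147 CPM in busulfan hearts (log2 fold change -0.34 ± 0.13). Pfkl separated the groups and Pfkp overlapped by 1 library. The TCA cycle list had a median of -0.01 over 25 genes, or 0.07 without scaling and 0.09 on the TPM scale, but without busulfan replicate 2 it was -0.11 with 0 of 25 above 0. Ketone and short-chain fatty acid genes had a median of 0.01 over 13, or -0.11 without busulfan replicate 2, with the ketone-using enzyme gene Oxct1 at 0.06 ± 0.22. Fabp3, the heart fatty acid binding protein, lay at -0.28 ± 0.24, and the kinase gene Pdk4, which closes the entry of pyruvate, at 0.14 ± 0.22. Ucp3, Ppargc1a and the adipocyte list's most abundant member Acsl1, 3 genes of fuel use, lay at 0.30 ± 0.21, -0.07 ± 0.19 and -0.04 ± 0.18.

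Other muscle genes differed less. Atp2a2, the calcium pump of the sarcoplasmic reticulum, lay at -0.12 ± 0.16, and its list of calcium handling genes and ion channels at a median of -0.03, or 0.05 without scaling and 0.04 on the TPM scale. The wall-stress hormone genes were variable: Nppa had 458, 400 and 2821 CPM in control-FMT hearts and 251, 855 and 2217 CPM in busulfan hearts. Nppb had 212, 183 and 204 CPM in control-FMT hearts and 211, 243 and 321 CPM in busulfan hearts (log2 fold change -0.37 ± 0.27). Nppa was highest in the library of each group with the highest atrial marker sum. Hspb7, a small heat shock protein of heart muscle, had 3683, 3500 and 3709 CPM in control-FMT hearts and 4030, 4173 and 4508 CPM in busulfan hearts, without overlap (log2 fold change -0.22 ± 0.20). Map1lc3a, a protein of the autophagosome membrane, had 495, 460 and 408 CPM in control-FMT hearts and 668, 607 and 536 CPM in busulfan hearts (log2 fold change -0.41 ± 0.13), also without overlap, while its list of atrophy and autophagy genes had a median of -0.01, which changed sign without scaling and on the TPM scale (0.07 and 0.08).

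Of 13 core clock genes, 2 had an unadjusted p under 0.05 and were higher (1.76% of all genes), Per2 and Per3, and 1 was lower (0.89% of all genes), Arntl. None was called after adjustment. A single gene of the 13, Arntl, separated the groups, where 6.58% of all genes were lower without overlap, so the list did not stand out by this count. The heart clock runs on ARNTL and CLOCK, which drive the Per, Cry, Nr1d and Dbp genes, and NR1D1 and NR1D2 in turn repress Arntl. Arntl had 33.6, 28.9 and 21.7 CPM in control-FMT hearts, against 39.7, 42.9 and 37.0 CPM in busulfan hearts. All control-FMT values were below all busulfan values, and the log2 fold change was -0.50 ± 0.14. Per2 had 4.23, 3.11 and 6.04 CPM in control-FMT hearts and 3.48, 1.27 and 1.78 CPM in busulfan hearts, with 1 library overlapping (log2 fold change 1.03 ± 0.36). Per3 had 6.27, 8.10 and 15.5 CPM in control-FMT hearts and 4.53, 6.79 and 6.93 CPM in busulfan hearts (log2 fold change 0.71 ± 0.31). Nr1d1 had 129, 128 and 230 CPM in control-FMT hearts and 80.8, 108 and 144 CPM in busulfan hearts, and Dbp had 23.2, 24.6 and 81.9 CPM in control-FMT hearts and 16.3, 15.6 and 23.5 CPM in busulfan hearts. Control-FMT replicate 3 was the library with the lowest Arntl and the highest Per2, Per3, Nr1d1 and Dbp of all 6.

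Without control-FMT replicate 3 the log2 fold change was -0.35 for Arntl, 0.75 for Per2 and 0.24 for Per3. Bhlhe41, a repressor that feeds back on the clock, had 25.8, 27.2 and 33.0 CPM in control-FMT hearts and 21.0, 19.9 and 22.6 CPM in busulfan hearts, without overlap (log2 fold change 0.44 ± 0.11). The core clock list held 7 of 13 genes above 0 with a median of 0.01, or -0.02 without control-FMT replicate 3, with Clock itself at -0.05 ± 0.16 and Cry1 at -0.03 ± 0.24. The labels give no time of day at which hearts were taken, so the part of sampling time in these values was not tested.

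**Figure D4:**
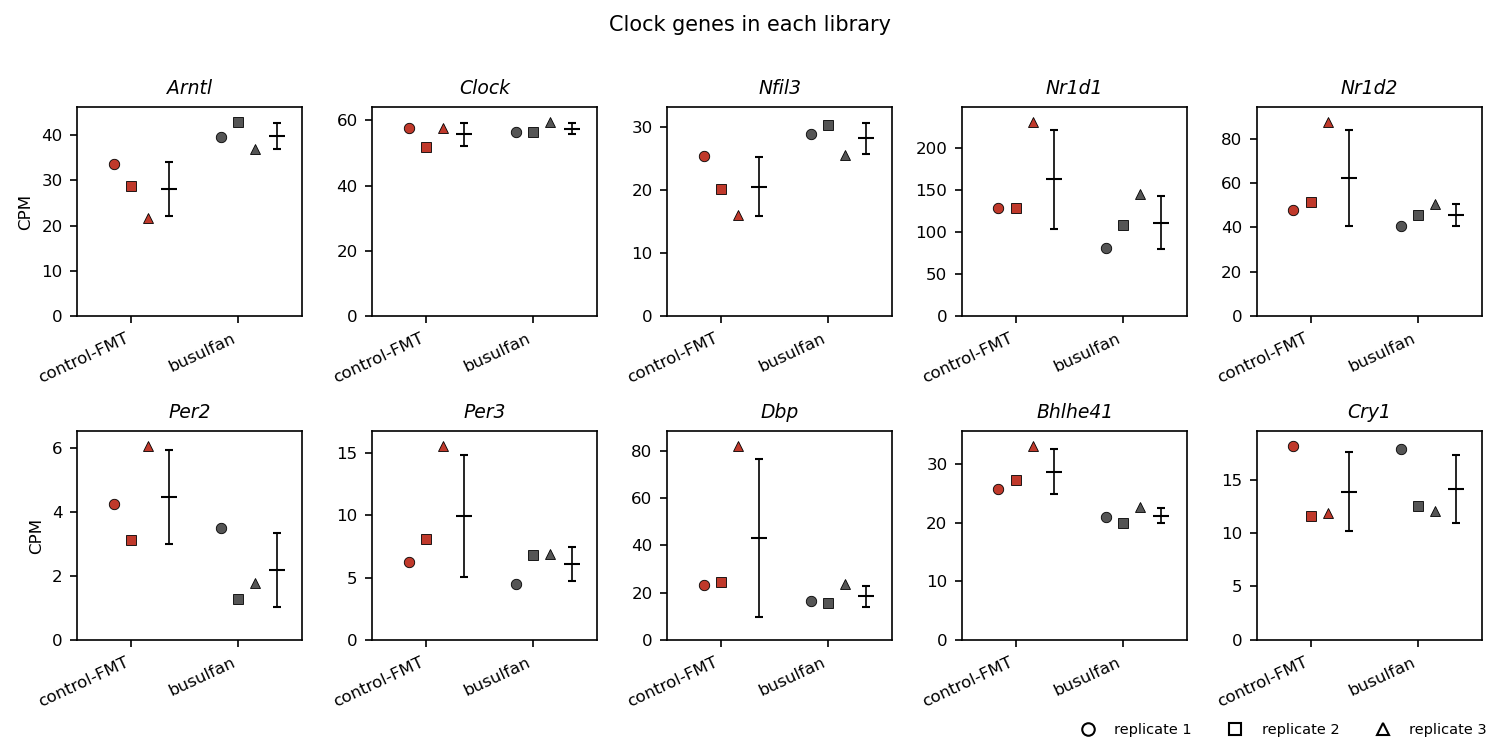
CPM of 10 clock genes in each library, with the replicate number as marker shape and the mean and SD of 3 libraries beside each group. Arntl and Nfil3 are lower and Bhlhe41 higher in every control-FMT library, and control-FMT replicate 3 (triangle) is the highest library for Nr1d1, Nr1d2, Per2, Per3 and Dbp.

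The remaining genes with the smallest p in either direction belonged to no common list. On the higher side, Man2a1, a mannosidase of the Golgi that trims N-glycans, had 34.0, 37.9 and 36.8 CPM in control-FMT hearts and 19.7, 26.2 and 21.8 CPM in busulfan hearts (log2 fold change 0.68 ± 0.19). Stk10, a kinase best known in lymphocytes, had 32.3, 31.9 and 31.2 CPM in control-FMT hearts and 22.5, 25.5 and 24.7 CPM in busulfan hearts (log2 fold change 0.39 ± 0.10). Pop4, a subunit of RNase P, averaged 17.8 ± 1.65 CPM in control-FMT hearts and 11.2 ± 2.25 CPM in busulfan hearts, and Fam172a 16.1 ± 1.68 CPM and 11.4 ± 0.986 CPM (SD, n = 3 each). None of these 4 genes overlapped, since the rule that named them required it.

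On the lower side, Ptgds, which makes prostaglandin D2, had 230, 189 and 257 CPM in control-FMT hearts, against 376, 443 and 502 CPM in busulfan hearts (log2 fold change -0.97 ± 0.28). Csdc2, an RNA-binding cold shock domain protein, had 113, 113 and 103 CPM in control-FMT hearts and 140, 154 and 153 CPM in busulfan hearts (log2 fold change -0.44 ± 0.11). Ptgds thus had the larger fold and Csdc2 the smaller spread. Itpr2, an inositol trisphosphate receptor that releases calcium, had 23.8, 26.4 and 24.3 CPM in control-FMT hearts and 39.6, 45 and 31.8 CPM in busulfan hearts (log2 fold change -0.64 ± 0.20). Foxo4, a transcription factor held back by insulin signalling, had 61.5, 63.5 and 58.7 CPM in control-FMT hearts and 74.5, 74.2 and 76.4 CPM in busulfan hearts (log2 fold change -0.29 ± 0.09). The log2 fold change was -0.38 ± 0.11 for Sil1, an exchange factor of the chaperone BiP, -0.46 ± 0.14 for the Wnt5a receptor gene Ror1 and -0.35 ± 0.11 for Akap8l, an anchoring protein of the nucleus.

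The DNA damage response, which busulfan is known to trigger, showed little difference. Cdkn1a, the p53 target that arrests the cell cycle, had 63.3, 65.7 and 69.2 CPM in control-FMT hearts and 65.0, 80.2 and 72.7 CPM in busulfan hearts, with overlapping libraries and a log2 fold change of -0.14 ± 0.13. Untreated hearts had 41.4, 42.7 and 31.3 CPM, below all 6. Of 31 p53 targets 19 were above 0 with a median of 0.03, or 9 of 31 with a median of -0.07 without control-FMT replicate 3. Among them 0 had an unadjusted p under 0.05, and the most abundant, Ccng1, lay at 0.02 ± 0.14. Crosslink repair and checkpoint genes had a median of -0.03 over 22 members, or 0.05 without scaling and 0.01 on the TPM scale, and their most different member, the checkpoint kinase gene Chek1, had 1.25, 1.15 and 1.29 CPM in control-FMT hearts and 0.435, 0.424 and 0.761 CPM in busulfan hearts (log2 fold change 1.17 ± 0.43). Proliferation genes had a median of -0.01, or 0.07 without scaling and 0.03 on the TPM scale, and it ranged from -0.24 without control-FMT replicate 3 (5 of 26 above 0) to 0.20 without busulfan replicate 2 (20 of 26 above 0), with Pcna at 0.05 ± 0.12.

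Stress and antioxidant genes were mixed. Atf3, an early stress factor, had 6.58, 12.7 and 7.94 CPM in control-FMT hearts and 4.61, 4.07 and 8.29 CPM in busulfan hearts (log2 fold change 0.68 ± 0.27, and 0.36 without control-FMT replicate 2). Among 26 NRF2 targets and antioxidant enzymes 13 were above 0. Srxn1, which repairs oxidised peroxiredoxins, had 32.9, 37.2 and 27.9 CPM in control-FMT hearts and 26.7, 23.9 and 22 CPM in busulfan hearts (log2 fold change 0.43 ± 0.15). G6pdx, which supplies NADPH, had 17.5, 20.1 and 16.9 CPM in control-FMT hearts and 12.6, 14 and 15.7 CPM in busulfan hearts (log2 fold change 0.37 ± 0.16). Neither gene overlapped.

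Traces of other tissues varied between libraries. The adipocyte markers Adipoq and Plin1 summed to 3.449, 0.7364 and 9.318 CPM in control-FMT hearts and 0.1741, 0.6788 and 2.622 CPM in busulfan hearts, and the median of 11 adipocyte genes was 1.77, or 0.65 without control-FMT replicate 3. Mesothelial markers had a median of 0.59 over 14 genes and 0 without overlap, and it was 0.08 without control-FMT replicate 3. Upk3b, a mesothelial gene, had 1.18, 3.03 and 7.16 CPM in control-FMT hearts and 1.04, 0.0848 and 9.64 CPM in busulfan hearts. Haemoglobin genes took 0.403% to 0.841% of counts in control-FMT libraries and 0.324% to 0.578% in busulfan libraries, with Hba-a1 at 0.35 ± 0.46. The plasma protein gene Hp, encoding haptoglobin, had 3.21, 4.01 and 7.16 CPM in control-FMT hearts and 1.57, 1.87 and 2.45 CPM in busulfan hearts, without overlap (log2 fold change 1.28 ± 0.37). Alb, encoding albumin, had 23.8, 6.55 and 8.80 CPM in control-FMT hearts and 10.8, 9.33 and 11.7 CPM in busulfan hearts, with overlap (log2 fold change 0.30 ± 1.03). Of 16 liver markers 12 were above 0 with a median of 0.25, or -0.38 with 6 above 0 without control-FMT replicate 1. The part of these tissues in the differences above was not tested.

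Some genes were nearly on or off from library to library, and 3 of them, Stbd1, Gm40525 and Hmga1b, lay among the 1% of genes with the largest differences. Stbd1, a glycogen-binding protein, was named after its values were seen, because the 6-library fit called it (adjusted p = 0.00198, with a range of 0.00198 to 1 over all alternatives). It had 8.31, 9.41 and 9.15 CPM in control-FMT hearts, against 1.57, 1.27 and 1.27 CPM in busulfan hearts. The groups were far apart, yet AOS-FMT hearts had 1.01, 2.39 and 6.51 CPM and untreated hearts 1.54, 1.75 and 12.4 CPM, a spread within each of these groups as wide as the difference. The predicted gene Gm40525 had 70.2, 6.46 and 101 CPM in control-FMT hearts and 1.31, 3.22 and 1.86 CPM in busulfan hearts (DESeq2 adjusted p = 0.0168, with a range of 0.0168 to 1 over all alternatives), and 20.9, 25.4 and 1.75 CPM in untreated hearts. Hmga1b, a copy of the chromatin protein gene Hmga1 that can share its reads, was also named after its values were seen. It had 16.5, 24.9 and 0 CPM in control-FMT hearts, 0, 0 and 0.254 CPM in busulfan hearts, and 21.8, 41.7 and 18.1 CPM in AOS-FMT hearts. It was thus present in 5 of the 6 FMT libraries and nearly absent from the other libraries, and edgeR called it only in the fit without control-FMT replicate 3 (adjusted p = 0.00196, with a range of 0.00196 to 1 over all alternatives).

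**Figure D5:**
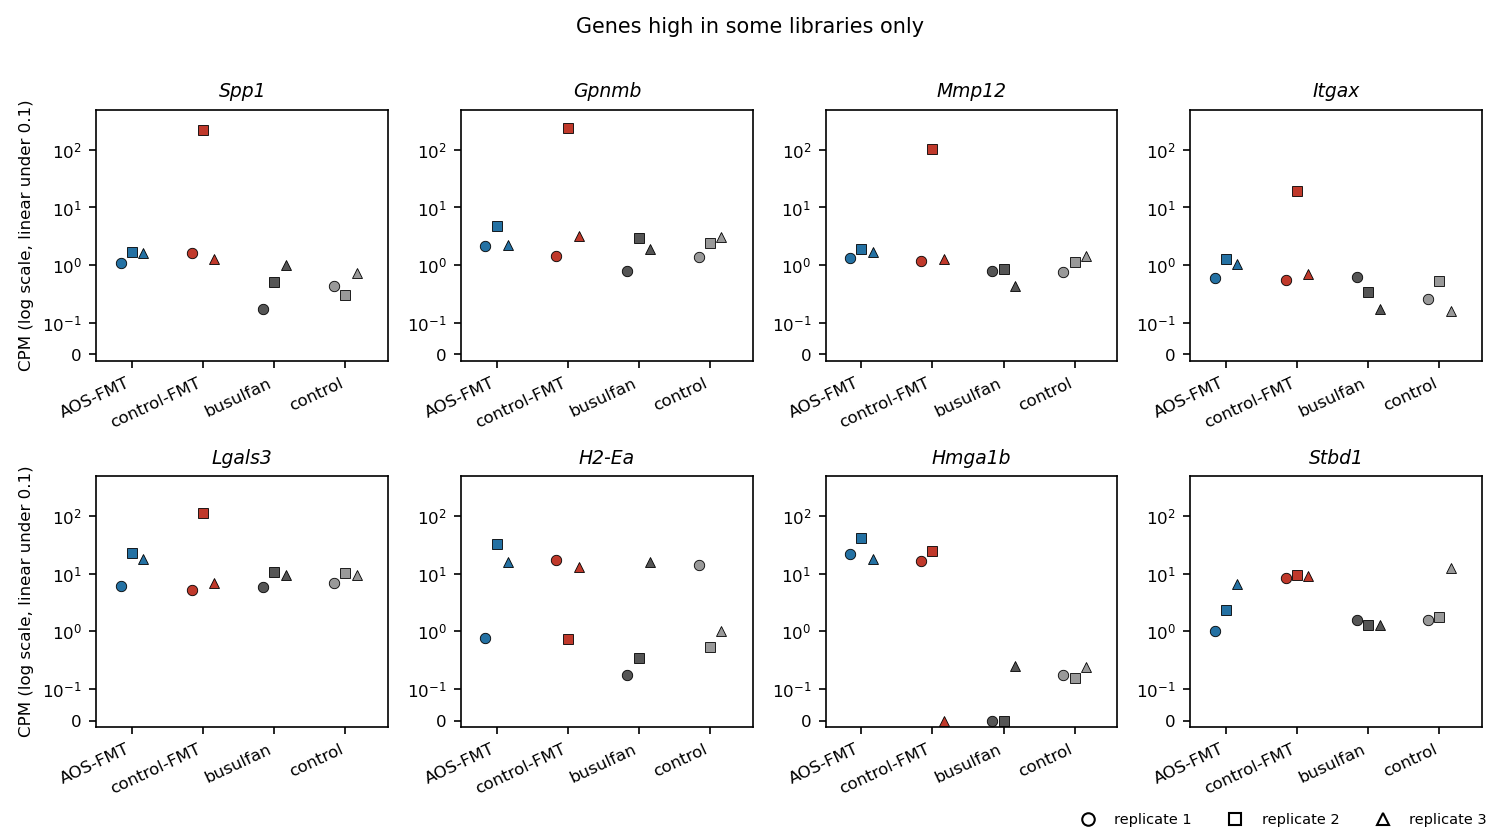
CPM of 8 genes in all 12 libraries, on an axis that is logarithmic above 0.1 and linear below it, with the replicate number as marker shape. Control-FMT replicate 2 (square) stands alone for Spp1, Gpnmb, Mmp12, Itgax and Lgals3, H2-Ea is high or low within every group, and Hmga1b is present in FMT libraries except control-FMT replicate 3.

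Few genes were called between the 2 kinds of FMT. Between AOS-FMT and control-FMT hearts edgeR called 4 of 13489 genes, 0.0297%, all higher in AOS-FMT hearts. Irs2, an adaptor of the insulin receptor, had 73.5, 49.6 and 100 CPM in AOS-FMT hearts, against 16.1, 13.99 and 16.1 CPM in control-FMT hearts (log2 fold change 2.27 ± 0.28, adjusted p = 0.0246). Between control-FMT and busulfan hearts, a comparison that shares the control-FMT libraries, Irs2 lay at -0.08 ± 0.28. Gvin1, a large interferon-inducible GTPase with close copies, had 11.5, 9.94 and 15.0 CPM in AOS-FMT hearts, 3.84, 4.58 and 4.49 CPM in control-FMT hearts and 7.66, 7.38 and 6.34 CPM in busulfan hearts. Untreated hearts had 3.34, 5.24 and 2.94 CPM. Gvin1 was thus lower in control-FMT hearts than in AOS-FMT and busulfan hearts, at -0.73 ± 0.23 against busulfan hearts, which was not called. For the genes that lead the comparison, AOS-FMT minus control-FMT was -0.18 ± 0.15 for Bcl6, 0.22 for H2-Aa, -0.09 for H2-Ab1 and -0.08 for Cd74, none of them called. Bcl6 had 54.1, 43.8 and 31.7 CPM and H2-Aa 118, 179 and 130 CPM in AOS-FMT hearts.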

How the data were processed

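RNA of whole hearts was extracted with Trizol and a column kit and sequenced on Illumina libraries, per the labels' protocols. Bowtie 0.12.2 and mm10 are named, per the submitters' processing notes. A counting tool, annotation and strand setting were not given in the sources used here, so overlapping and antisense genes cannot be told apart. The deposited table holds estimated counts per gene and TPM, per the file headers. Within a tolerance of 1e-09, 94.7% to 95.3% of a library's counts were whole numbers. Its 12 columns of FPKM were not used. Counts were rounded, filtered with filterByExpr, scaled by TMM and tested in edgeR 4.0.16 with the quasi-likelihood test (robust) on all 12 libraries, group as the only factor, two-sided, Benjamini-Hochberg adjusted over all genes tested. DESeq2 1.42.0, limma 3.58.1 (voom, and log2(TPM + 1) on the deposited TPM), other scalings and filters, the 6 libraries alone, a replicate block and each library left out were alternatives, with R 4.3.3, and scripts were tested on simulated data. An exact test of 3 against 3 cannot go below p = 0.1, so none is given. No pair of replicates agreed within sampling noise.

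The members and gene lists were chosen with earlier results of these data known. Genes were named by rule: the 12 with the smallest p in each direction among those without overlap and with a group mean of at least 5 CPM, up to 3 per list at an unadjusted p under 0.05 or else the most abundant, 14 fixed genes, and genes called by a tool. Stbd1, H2-Ea, Hmga1b, Fosl2, Sik1 and further members of the lists were named after their values were seen. Of 1257 list symbols 1247 were in the table. Coordinates and promoters are RefSeq's for GRCm38.p6, the assembly of mm10, in which 17487 gene identifiers were found. Some items are not reported here.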

Additional observations from a re-analysis of the deposited data

Results flagged for a closer look

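In all, 4 genes differed between the 2 kinds of FMT in the test of that difference itself, while the comparison of control-FMT with busulfan hearts did not call them. The log2 fold change of AOS-FMT over control-FMT was 2.27 for Irs2, 1.56 for Sik1, 1.49 for Gvin1 and 1.36 for Fosl2, with edgeR adjusted p of 0.0246, 0.0326, 0.04998 and 0.0154. Sik1, a salt-inducible kinase, had 106, 96.6 and 138 CPM in AOS-FMT hearts, 31.7, 32.8 and 50.8 CPM in control-FMT hearts and 35.2, 32.4 and 48.1 CPM in busulfan hearts. Fosl2, a subunit of AP-1, had 54.9, 50.7 and 72.9 CPM in AOS-FMT hearts, 24.9, 22.2 and 22.4 CPM in control-FMT hearts and 21.9, 26.6 and 26.5 CPM in busulfan hearts. For Irs2, Sik1 and Fosl2 the control-FMT and busulfan libraries overlapped, and all 3 AOS-FMT libraries lay above both. No reason for the difference was tested.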

How the results depend on the processing

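edgeR called 0 genes between control-FMT and busulfan hearts in all 12 libraries, DESeq2 2, and the fit of the 6 libraries alone 2; leaving out 1 library gave 0 to 1, and the other alternatives gave 0. The count at an unadjusted p under 0.05 was 358 (238 higher, 120 lower), 792 in the 6-library fit (406 higher, 386 lower), 482 without scaling (436 higher, 46 lower), 411 on the TPM scale (374 higher, 37 lower), 434 without a filter (307 higher, 127 lower) and 264 to 448 with 1 library left out. Between AOS-FMT and control-FMT hearts edgeR called 4 genes, DESeq2 32, no scaling 2, the TPM scale 2, the 6-library fit 0, and leaving out 1 library 0 to 3. Deviations of same-numbered libraries correlated at 0.144, 0.0404 and 0.271, and libraries 1 and 3 but not 2 correlated best with their own number. So few correlations cannot decide whether the replicate numbers pair the samples. With the replicate block the counts were 0 and 455 between control-FMT and busulfan hearts and 6 between the kinds of FMT.

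Of 1711 log2 fold changes of 108 named genes over 16 alternatives, 60 changed sign, in 19 genes that lay near 0 or had a wide spread, 5 passed the threshold newly, and 1646 did neither. Without scaling, Acsl1 was 0.038, Cd36 0.075, Gstm1 0.080, Irs2 0.0022, Ppargc1a 0.015, Sik1 0.075 and Uqcrc1 0.014, and on the TPM scale they were 0.047, 0.089, 0.10, 0.012, 0.031, 0.065 and 0.044, with Rps2 at 0.0094. At the stricter filter Cd36 was 0.0009, Gstm1 0.0065 and Sik1 0.0021. Gstm1 was 0.0008 with DESeq2 and with its size factors, 0.0031 with voom, 0.0038 without a filter, 0.0058 in the 6-library fit and 0.0026 with the replicate block. Tnfaip2 was -0.018 with voom and -0.0053 with the block, and Upk3b -0.090 with the block. With 1 library left out the ranges were -0.47 to 0.62 for Alb, -0.087 to 1.19 for Ccl5, -0.032 to 0.050 for Ccng1, -0.057 to 0.022 for Cd36, -0.053 to 0.086 for Gstm1, -0.18 to 0.027 for Irs2, -0.090 to 0.37 for Mbp, -0.081 to 0.074 for Mcl1, -1.37 to 1.15 for Nppa, -0.057 to 0.16 for Oxct1, -0.071 to 0.15 for Pcna, -0.069 to 0.35 for Pdk4, -0.18 to 0.090 for Ppargc1a, -0.26 to 0.18 for Sik1, -0.11 to 0.15 for Tnfaip2, -0.78 to 2.72 for Upk3b and -0.21 to 0.044 for Uqcrc1. The cause was not tested. Of 957 list medians 100 changed sign. Over all genes, standard errors had a median of 0.163. Bcl6, at 0.88, did not pass edgeR's adjusted test in all 12 libraries (adjusted p = 0.999, with a range of 0.00869 to 1 over the alternatives). It passed that test in the fit of the 6 libraries alone (adjusted p = 0.0168).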

Other observations

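In some further lists medians lay near 0. BCL2 family genes had a median log2 fold change of 0.09 over 18 members, with the survival factor gene Mcl1 at 0.01 ± 0.11. Glutathione S-transferase and glutathione genes had a median of -0.0008 over 23, or 0.08 without scaling and 0.10 on the TPM scale, with Gstm1 at 417 ± 24.4 CPM in control-FMT hearts and 417 ± 42.9 CPM in busulfan hearts (SD, n = 3 each). Heat shock chaperones had a median of -0.05 over 20, or 0.03 without scaling and 0.04 on the TPM scale, and genes of the unfolded protein response 0.07 over 23, with Hspa5, the chaperone BiP, at 0.10 ± 0.12. Splicing factors had a median of -0.01, or 0.07 without scaling and 0.08 on the TPM scale, with the helicase gene Ddx5 at 0.09 ± 0.10. The most abundant members of the platelet, nerve, liver, skeletal muscle and cytosolic ribosome lists, Pf4, Mbp, Trf, Ckm and Rps2, lay, as log2 fold changes, at 0.18 ± 0.20, 0.16 ± 0.48, 0.19 ± 0.28, -0.19 ± 0.21 and -0.10 ± 0.19. The medians were higher in the platelet (0.18), nerve (0.21), liver (0.25) and skeletal muscle (0.33) lists. Without control-FMT replicate 1 the liver and skeletal muscle medians were -0.38 and -0.10. The nerve median was -0.04 without busulfan replicate 1. Of 26 immediate early genes 21 were above 0, with a median of 0.13, but without control-FMT replicate 3 there were 11, with a median of -0.09.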
